A study of Mus musculus with 14 samples.

Results

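Nucleolar, RNA polymerase I and RNA polymerase III genes were followed as 1 set in mouse oocytes that overexpressed Rnaseh1, Rnaseh1 together with Supt6, or mCherry. Members were protein-coding genes whose symbols begin with Polr1, Polr3, Utp, Nop, Nol or Rrp followed by a letter or a number as in those families, plus Ncl, Fbl, Dkc1, Ubtf and Npm1, if they were present in both deposited tables at 1 TPM or more in 2 libraries of a table. TPM is transcripts per 1000000 transcripts, a level per transcript length. Of 56 matching symbols 55 were members, out of 21264 protein-coding symbols found in both tables. Ranked by the second-highest library of the better table, the nearest inside the limit were Nop16, which reached 1 TPM only in the NSN mCherry libraries (2.87 and 1.5 TPM), and Ubtf (second-highest library 1.88 TPM), and the 1 outside was Nol3, which stayed at or below 0.59 TPM in every library. Nol3, Nol4 and Nol4l carry the nucleolar prefix without a known part in ribosome production. The Pol I subunits listed under the older symbols Twistnb, Cd3eap and Znrd1 do not match these prefixes and are not members.

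The nucleolus is where RNA polymerase I (Pol I) transcribes ribosomal DNA and where the transcript is cut, modified and packed into pre-ribosomes. RNA polymerase III (Pol III) makes 5S ribosomal RNA, tRNAs and other short RNAs. Box C/D and box H/ACA small nucleolar ribonucleoproteins (snoRNPs) guide the methylation and pseudouridylation of the ribosomal RNA, and the small-subunit processome, whose UTP proteins were named in yeast, assembles on the nascent transcript around the U3 snoRNP. In the growing oocyte the nucleolus is active and the chromatin does not surround it (non-surrounded nucleolus, NSN). In the full-grown oocyte the chromatin forms a ring around a compact nucleolus (surrounded nucleolus, SN) and transcription has ceased. Rnaseh1 degrades RNA that is paired with DNA, and Supt6 is a transcription elongation factor and histone chaperone that travels with RNA polymerase II.

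The study held 14 polyadenylated-RNA libraries in 7 groups of 2, deposited as 2 tables. In the rescue table the groups were oocytes overexpressing Rnaseh1 plus Supt6, Rnaseh1, and mCherry, a fluorescent protein that served as the control, and their labels give no nuclear stage. In the other table, SN oocytes and NSN oocytes each overexpressed Rnaseh1 or mCherry. Age, strain, how many oocytes were pooled and the animals behind each library are not given in the labels, so each p-value below measures the spread between libraries only.

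Rnaseh1 reached 2270 and 2017 TPM in the Rnaseh1 plus Supt6 libraries, 1243 and 625 TPM in the Rnaseh1 libraries and 125 and 114 TPM in the mCherry libraries of the rescue set. Supt6 reached 28.2 and 21.0 TPM with Rnaseh1 plus Supt6, 3.01 and 2.55 TPM with Rnaseh1 and 3.28 and 3.14 TPM with mCherry. In the other table Rnaseh1 was at 1361 and 1083 TPM in SN Rnaseh1 oocytes against 81.0 and 131 TPM in SN mCherry oocytes, and at 745 and 229 TPM in NSN Rnaseh1 oocytes against 137 and 108 TPM in NSN mCherry oocytes. Oocyte identity was clear: 14 of 15 oocyte markers exceeded 1 TPM in every library, with a summed level between 19130 and 28225 TPM. The summed level of 15 granulosa and cumulus markers lay between 23.2 and 48.9 TPM. Most of this sum was Cyp19a1 in every library, at 12.98 to 46.1 TPM, while Amh, Amhr2, Foxl2 and Ptx3 were listed at 0 throughout. NSN Rnaseh1 replicate 2 and SN mCherry replicate 2 stood apart from their partners. Over the members, the difference between replicates had an SD of 1.01 log2 units in NSN Rnaseh1 and 0.90 in SN mCherry, against 0.28 to 0.51 in the other 5 groups. Since TPM keeps no read depth, counting error is unknown.

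Members differed widely in level. In the rescue mCherry libraries 6 members averaged 100 TPM or more, 31 lay between 10 and 100 TPM, 16 between 1 and 10 TPM and 2 below 1 TPM. Npm1, nucleophosmin, was the most abundant at 424 and 472 TPM in these 2 libraries, followed by Utp4 at 393 and 405 TPM, which does not overlap it. Polr1d followed at 289 and 306 TPM, Dkc1 at 229 and 228 TPM, Nop56 at 132 TPM in both and Polr3k at 103 and 104 TPM. Those 6 occupied separate ranges. At the bottom were proteins central to a somatic nucleolus: Ubtf, which opens ribosomal DNA for Pol I, at 1.54 and 2.44 TPM, and Fbl (fibrillarin), the methyltransferase of box C/D snoRNPs, at 2.0 and 1.57 TPM, whose ranges overlap. The subunits of Pol I were far from equal in mRNA level. The shared subunit Polr1d had a mean of 297 TPM with mCherry, against 12.8 TPM for Polr1a and 2.95 TPM for Polr1b, the 2 large catalytic subunits.

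**Figure D1:**
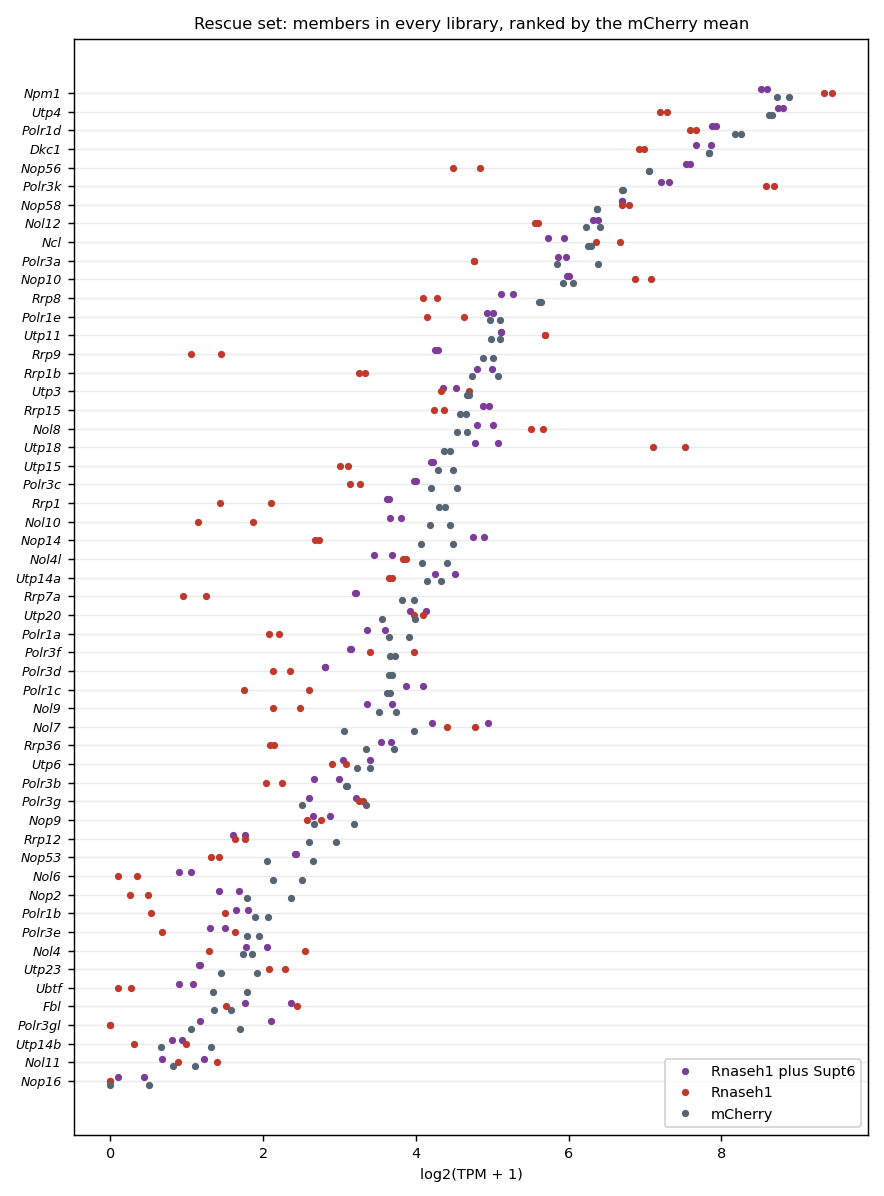
Level of 54 of the 55 members in the 6 rescue libraries on a log2(TPM + 1) axis, 1 point per library, ranked from top to bottom by the mean of the mCherry libraries. Npm1 heads the list, Nop16 ends it, and the Rnaseh1 points of Rrp9, Rrp1, Nol10 and Rrp7a lie far to the left while those of Utp18 and Polr3k lie to the right.

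Summed over all members the level barely moved, at 2551 and 2529 TPM with Rnaseh1 plus Supt6, 2548 and 2468 TPM with Rnaseh1 and 2581 and 2587 TPM with mCherry. The median member was at 14.2 and 13.7 TPM with Rnaseh1 plus Supt6, 7.48 and 7.61 TPM with Rnaseh1 and 15.7 and 18.7 TPM with mCherry. The typical member was thus lowest with Rnaseh1, where the median of all tested genes was also below mCherry (-0.52 on the log2 scale). Without Npm1, the most abundant member, the sum was 2163 TPM in both Rnaseh1 plus Supt6 libraries, 1897 and 1767 TPM with Rnaseh1 and 2109 and 2162 TPM with mCherry. In bulk RNA, fewer cells with a transcript and less transcript per cell cannot be told apart.

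The first question was what Rnaseh1 overexpression did to these genes in the rescue set. With limma on log2(TPM + 1) and Benjamini-Hochberg adjustment over all 12859 tested genes, 38 of the 53 members tested changed at an adjusted p under 0.05, 8 upward and 30 downward. The change was as broad in the whole transcriptome: 66.5% of all tested genes were called, 20.3% upward and 46.2% downward, so the members' 71.7% is near the background. The median log2 fold change was -0.74 over the members and -0.52 over all tested genes. The balance of rises and falls depends on how libraries are scaled. It was 8 up and 30 down as deposited, 13 up and 21 down after median centring (33.4% and 30.3% of all tested genes), 15 up and 19 down after quantile normalization (32.8% and 30.8%), and 14 up and 10 down once a trend with transcript GC content was removed (30% and 26.6%). Median centring moved the median of all genes to 0.06 and that of the members to -0.16.

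Of the 53 members, 15 were called in the same direction under all 4 of these scalings, 10 downward and 5 upward. Among the 12603 genes tested under all 4 the shares were 20.2% downward and 17.8% upward, and nothing particular to the members is read from these calls. Rrp9, Nol10, Rrp7a, Rrp1, Nop56, Polr1a, Nop14, Utp4, Utp15 and Dkc1 fell, and Utp18, Polr3k, Nop10, Nol8 and Utp11 rose. Sign changed under at least 1 scaling for 10 of the 38 called members, and these are named beside their values below. The oocyte markers summed to 24873 and 25883 TPM with Rnaseh1 plus Supt6, 19130 and 19290 TPM with Rnaseh1 and 22719 and 23783 TPM with mCherry. The sum hides unequal moves: of 14 oocyte markers tested 11 fell and 1 rose. Mos, the kinase of meiotic arrest, fell by 4.31 on the log2 scale, Zp1 of the egg coat fell by 3.42 and Gdf9, an oocyte growth factor, fell by 2.42, while Dppa3, a maternal chromatin protein, rose by 1.88. Granulosa and cumulus markers summed to 41.3 and 46.2 TPM, 47.9 and 41.2 TPM, and 48.5 and 46.3 TPM in the same 3 groups, with 5 to 9 of 15 listed at 0. Whether these shifts in the oocyte markers have a part in the members' changes was not tested.

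**Figure D2:**
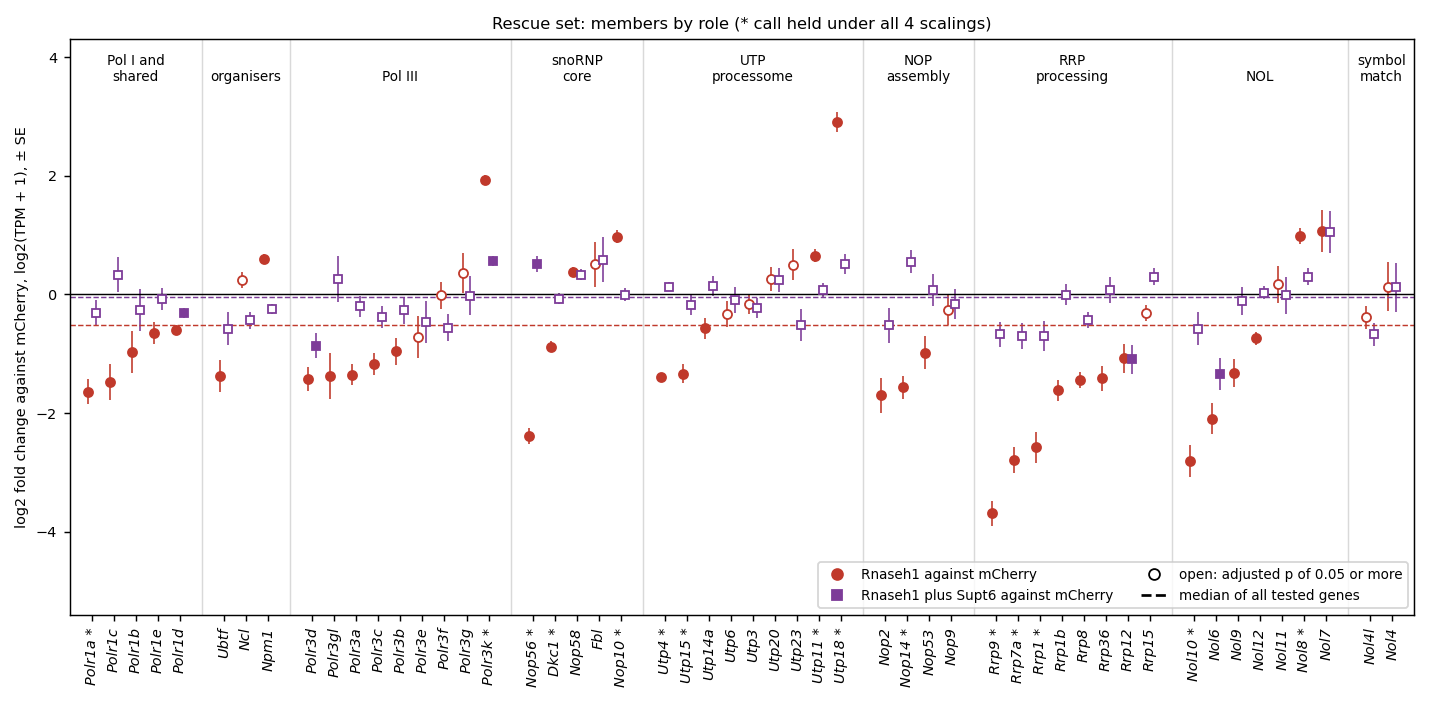
Log2 fold change on the log2(TPM + 1) scale, with standard error, of 52 of the 53 tested members in the rescue set, grouped by role; circles are Rnaseh1 against mCherry, squares Rnaseh1 plus Supt6 against mCherry, filled where the adjusted p was under 0.05, dashed lines the median of all tested genes, and asterisks calls that held under all 4 scalings. Circles reach from -3.69 for Rrp9 to 2.91 for Utp18 while most squares lie near 0.

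Promoter sequences are shown for 6 of these 15 members, 3 that fell (Nop56, Utp4 and Nol10) and 3 that rose (Utp18, Polr3k and Nol8), because genes of one pathway went in opposite directions here. Each line gives the 250 bases before the RefSeq transcription start, from RefSeq on GRCm38.p6, read 5′ to 3′ on the gene's strand. The regions are chr2:130274162-130274411 (plus strand) for Nop56, chr8:106893390-106893639 (plus) for Utp4, chr12:17348243-17348492 (plus) for Nol10, chr11:93885767-93886016 (minus) for Utp18, chr2:181864110-181864359 (plus) for Polr3k and chr13:49652828-49653077 (plus) for Nol8. Capitals mark matches on either strand to CACGTG, the E-box bound by Myc-type factors, or to CCGGAAG, the core bound by ETS-type factors.
Nop56: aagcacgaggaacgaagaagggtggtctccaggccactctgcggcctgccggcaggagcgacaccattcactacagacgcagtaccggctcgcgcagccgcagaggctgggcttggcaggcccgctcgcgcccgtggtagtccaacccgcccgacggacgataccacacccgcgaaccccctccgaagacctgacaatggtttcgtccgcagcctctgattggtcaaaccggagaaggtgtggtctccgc
Utp4: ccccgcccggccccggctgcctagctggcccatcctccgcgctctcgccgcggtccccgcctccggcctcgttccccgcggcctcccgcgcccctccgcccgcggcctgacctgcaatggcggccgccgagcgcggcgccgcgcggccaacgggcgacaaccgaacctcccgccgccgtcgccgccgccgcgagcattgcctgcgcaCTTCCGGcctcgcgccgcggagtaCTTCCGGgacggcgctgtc
Nol10: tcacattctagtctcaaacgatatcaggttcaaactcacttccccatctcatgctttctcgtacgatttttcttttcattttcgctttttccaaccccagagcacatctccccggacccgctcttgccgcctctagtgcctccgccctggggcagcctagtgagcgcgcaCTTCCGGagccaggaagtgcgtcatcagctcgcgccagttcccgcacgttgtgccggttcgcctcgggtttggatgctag
Utp18: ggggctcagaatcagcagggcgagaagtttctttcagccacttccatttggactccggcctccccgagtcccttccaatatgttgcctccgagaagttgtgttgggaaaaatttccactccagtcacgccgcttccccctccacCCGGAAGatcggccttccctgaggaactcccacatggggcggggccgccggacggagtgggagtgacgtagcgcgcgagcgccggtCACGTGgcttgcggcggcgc
Polr3k: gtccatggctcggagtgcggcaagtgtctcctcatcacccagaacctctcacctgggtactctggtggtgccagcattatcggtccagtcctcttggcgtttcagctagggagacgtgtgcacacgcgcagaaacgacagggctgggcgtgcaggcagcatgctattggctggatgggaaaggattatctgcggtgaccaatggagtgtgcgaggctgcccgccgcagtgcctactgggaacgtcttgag
Nol8: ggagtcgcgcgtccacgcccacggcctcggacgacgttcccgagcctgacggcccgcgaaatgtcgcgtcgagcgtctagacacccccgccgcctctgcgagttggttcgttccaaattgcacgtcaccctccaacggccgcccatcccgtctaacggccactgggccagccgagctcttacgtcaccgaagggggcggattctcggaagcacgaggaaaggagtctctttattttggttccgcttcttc

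Of the 55 members 43 had a RefSeq promoter entry. CACGTG was present in 16.3% of these 43 promoters against 5.93% of all 27025, and CCGGAAG in 23.3% against 7.14%. A TATAAA box was present in 9.30% of members' promoters against 12.9% of all. The consensus bound by NRF1 was found in 6.98% against 3.77%, and that bound by BANP in 0 of 43 members' promoters against 0.389% of all. All motifs were sought on both strands, and none of the 3 spelled out is contained in another. For members the start nearest the annotated 5′ end was taken, for all symbols the start with the lowest coordinate. The full set had no filter on gene type or level. CG dinucleotides had a median count of 15 in members' promoters and 5 in all promoters. The motif shares are therefore not set against like promoters, and enrichment was not tested. Utp18, which rose, has both CACGTG and CCGGAAG, and Utp4 and Nol10, which fell, also have CCGGAAG. Neither Nop56, which fell, nor Polr3k and Nol8, which rose, has any of the 5. Median GC content was 57.8% over the promoters of 6 members that rose, 56.0% over those of 25 that fell and 61.4% over those of 10 that were not called, against 52.0% over all promoters.

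The transcripts themselves were not alike. GC content of the longest transcript had a median of 42.0% in the 8 members that rose (40.9% to 46.5%), 51.7% in the 30 that fell (43.6% to 59.9%) and 47.6% in the 15 not called, with 48.5% over all tested genes. Spearman's rho between GC content and log2 fold change across genes was -0.688 for the 53 members and -0.498 for 12603 tested genes. These genes share the same libraries and are not independent replicates. Dkc1, at 43.6% GC, and Nol10, at 46.9%, were members that fell from the GC-poor side.

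**Figure D3:**
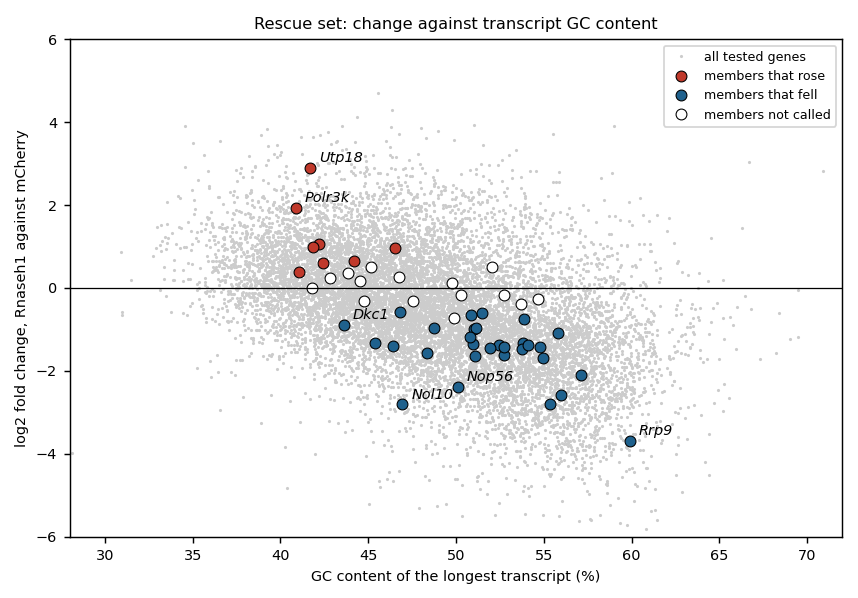
Log2 fold change of Rnaseh1 against mCherry in the rescue set (vertical axis) against the GC content of the longest annotated transcript in percent (horizontal axis), grey for all tested genes and large circles for the 53 members. Members that rose lie between 40.9% and 46.5% GC, and Rrp9, the largest fall, has the highest GC content of all members called, 59.9%.

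All 5 measured Pol I and shared Pol I/III subunits fell with Rnaseh1, although after removal of the GC trend Polr1b, Polr1d and Polr1e lay above 0, at 0.07, 0.49 and 0.33, Polr1d past the threshold there. Polr1a, the largest catalytic subunit, was at 9.28 and 11.1 TPM in the Rnaseh1 plus Supt6 libraries, 3.23 and 3.62 TPM in the Rnaseh1 libraries and 11.6 and 14.1 TPM in the mCherry libraries. Both Rnaseh1 libraries lay far below all 4 others. It fell by 1.64 on the log2 scale (SE 0.21, adjusted p = 0.000394), the only one of the 5 that held under every scaling. Polr1c, a subunit shared with Pol III, was at 16.0 and 13.7 TPM with Rnaseh1 plus Supt6, 5.05 and 2.35 TPM with Rnaseh1 and 11.4 and 11.7 TPM with mCherry. It fell by 1.48 on the log2 scale (SE 0.30, adjusted p = 0.00359). Polr1b, the second catalytic subunit, was scarce throughout, at 2.48 and 2.12 TPM, 0.44 and 1.83 TPM, and 2.72 and 3.18 TPM in the same 3 groups, and its fall (-0.97, SE 0.35) was just past the threshold with an adjusted p of 0.0442. Polr1d fell by 0.60 and Polr1e, a Pol I subunit involved in initiation, fell by 0.65.

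The partner lists that follow were counted on values as deposited, and their balance moved with scaling too. After removal of the GC trend the Pol III initiation list had 1 rise and 2 falls, the other snoRNP proteins 4 and 1, the other processome proteins 4 and 8, the large-subunit factors 6 and 4, the exosome 5 and 2, the shared subunits 5 and 0, and the Pol I initiation factors 2 and 2.

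Among the partners of Pol I that recruit it to ribosomal DNA, 5 initiation factors were tested. As deposited 2 rose and 2 fell, with 3 rises and 1 fall after median centring and 2 and 1 after quantile normalization. Rrn3, the factor that makes Pol I competent to initiate, was at 45.9 and 63.7 TPM with Rnaseh1 plus Supt6, 166 and 159 TPM with Rnaseh1 and 26.1 and 34.2 TPM with mCherry. It rose with Rnaseh1 by 2.40 on the log2 scale (SE 0.19). Taf1a, a subunit of the promoter selectivity factor SL1, fell to 213 and 178 TPM with Rnaseh1, against 454 and 464 TPM with mCherry (log2 fold change -1.23, SE 0.10). Taf1b of the same factor fell by 0.65 as deposited. Polr2k, Polr2e and Polr2l belong to the 5 measured subunits common to all 3 RNA polymerases, of which 2 rose and 1 fell. Polr2k rose to 2089 and 1909 TPM with Rnaseh1, against 562 and 513 TPM with mCherry (1.89, SE 0.08), and Polr2l rose by 0.67 on the log2 scale, whereas Polr2e fell by 0.93 as deposited and stood at 0.79, past the threshold, after removal of the GC trend.

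The 3 nucleolar organisers went separate ways. Npm1, a chaperone of the granular layer of the nucleolus, was at 388 and 365 TPM with Rnaseh1 plus Supt6, 652 and 701 TPM with Rnaseh1 and 472 and 424 TPM with mCherry. Both Rnaseh1 libraries were the highest of the 6, 0.59 above mCherry on the log2 scale (SE 0.09, adjusted p = 0.000688). After quantile normalization Npm1 was not called (0.22). Ubtf was at 0.21 and 0.07 TPM with Rnaseh1, against 1.54 and 2.44 TPM with mCherry (-1.38, SE 0.27), but its value was 0.08 after removal of the GC trend. Outside mCherry Ubtf reached 1 TPM in the rescue set only in Rnaseh1 plus Supt6 replicate 1 (1.12 TPM). It passed the 1 TPM filter of this set through mCherry. Its fall is therefore a description and no result, although it is counted among the falls. Ncl, nucleolin, which binds the nascent ribosomal transcript, was at 101 and 81.1 TPM with Rnaseh1 and 75.1 and 77.5 TPM with mCherry and did not pass the test as deposited (0.24, SE 0.14, adjusted p = 0.16). It passed after median centring (0.83, adjusted p = 0.00126) and quantile normalization (0.59, adjusted p = 0.00478) but not with the GC trend removed (0.18, adjusted p = 0.271).

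Of the 10 Pol III subunits 1 rose, 5 fell and 4 did not pass the test. Polr3k, the small subunit needed for termination and reinitiation, had the smallest p of all members. It was at 158 and 148 TPM with Rnaseh1 plus Supt6, 412 and 384 TPM with Rnaseh1 and 103 and 104 TPM with mCherry. The 3 groups did not overlap, and Rnaseh1 exceeded mCherry by 1.93 on the log2 scale (SE 0.09, adjusted p = 2.53e-06). The catalytic subunits went the other way as deposited, but Polr3k was the only Pol III subunit whose call held under all 4 scalings. Polr3a, the largest, fell to 26.2 and 26.1 TPM with Rnaseh1, against 56.5 and 82.6 TPM with mCherry (-1.35, SE 0.18, adjusted p = 0.00047), and Polr3b fell to 3.09 and 3.73 TPM, against 7.47 and 7.58 TPM (-0.95, SE 0.23). Polr3a was not called with the GC trend removed (-0.35). Polr3b was not called after median centring (-0.37), quantile normalization (-0.21) or removal of the GC trend (-0.31). Polr3c, which helps open the promoter, fell by 1.17 and Polr3d, part of a detachable module near the active centre, fell by 1.43, though Polr3d stood at 0.11 after removal of the GC trend. Polr3c was not called after quantile normalization (-0.41) or removal of the GC trend (-0.20). Polr3e, Polr3f and Polr3g were not called as deposited, with log2 fold changes from -0.71 to 0.36. Polr3g was called upward after median centring (0.94) and quantile normalization (1.11), Polr3f after quantile normalization (0.74).

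Polr3g and Polr3gl are paralogues that occupy the same place in Pol III, and Polr3g is the form typical of early embryos and stem cells. Polr3g was at 5.08 and 8.27 TPM with Rnaseh1 plus Supt6, 8.94 and 8.51 TPM with Rnaseh1 and 9.18 and 4.67 TPM with mCherry. Polr3gl was at 3.29 and 1.25 TPM with Rnaseh1 plus Supt6, was listed at 0 in both Rnaseh1 libraries and was at 1.08 and 2.23 TPM with mCherry. Polr3g was above Polr3gl in all 14 libraries of the study. The lower Polr3gl level with Rnaseh1 passed the test as deposited (adjusted p = 0.0152), at values close to the floor of the table. Polr3gl was not called after median centring (-0.79), quantile normalization (-0.92) or removal of the GC trend (-0.14).

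Of 9 Pol III initiation factors, the repressor Maf1 among them, 5 fell and none rose as deposited, while 2 rose after median centring, 3 with quantile normalization and 1 with the GC trend removed. Gtf3a, the zinc-finger protein TFIIIA that starts 5S RNA genes, fell to 7.95 and 7.91 TPM with Rnaseh1, against 39.7 and 43.0 TPM with mCherry (-2.24, SE 0.15; -0.48 after removal of the GC trend, still past the threshold). Gtf3c2, a subunit of TFIIIC, fell to 10.6 and 8.41 TPM, against 45.7 and 54.5 TPM (-2.29, SE 0.17). Brf2, which serves the U6-type promoters, fell to 43.2 and 45.1 TPM, against 108 and 127 TPM (-1.39, SE 0.14), but its value was 0.03 after removal of the GC trend.

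As deposited, both kinds of snoRNP split within themselves. In box C/D particles Nop56 and Nop58 are the paired scaffold proteins. Nop56 was at 184 and 192 TPM with Rnaseh1 plus Supt6, 27.8 and 21.5 TPM with Rnaseh1 and 132 TPM in both mCherry libraries. The groups were far apart, and Nop56 fell with Rnaseh1 by 2.38 on the log2 scale (SE 0.13, adjusted p = 6.41e-06). Nop58 was at 103 TPM in both Rnaseh1 plus Supt6 libraries, 110 and 103 TPM with Rnaseh1 and 81.8 and 81.6 TPM with mCherry. It was slightly higher with Rnaseh1 than with mCherry (0.38, SE 0.09, adjusted p = 0.00862), but was not called with the GC trend removed (0.15). The ratio of Nop58 to Nop56 was therefore 0.561 and 0.533 with Rnaseh1 plus Supt6, 3.97 and 4.79 with Rnaseh1 and 0.621 and 0.620 with mCherry. Fbl was low everywhere, at 4.46 and 1.85 TPM with Rnaseh1 and 2.0 and 1.57 TPM with mCherry, and was not called as deposited (0.51, SE 0.38). Under the other 3 scalings it was called upward, at 1.09, 1.18 and 1.69.

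In box H/ACA particles Dkc1 is the pseudouridine synthase and Nop10 a small protein bound to it. Dkc1 was at 232 and 203 TPM with Rnaseh1 plus Supt6, 121 and 126 TPM with Rnaseh1 and 229 and 228 TPM with mCherry. Nop10 was at 63.4 and 62.1 TPM, 134 and 116 TPM, and 65.9 and 60.0 TPM in the same groups. The Rnaseh1 libraries were lowest for Dkc1 and highest for Nop10. Dkc1 fell by 0.88 (SE 0.09, adjusted p = 0.000141) and Nop10 rose by 0.98 (SE 0.11, adjusted p = 0.000237) on the log2 scale. Of 10 other snoRNP proteins and assembly factors, 3 rose and 7 fell. Ruvbl2, an ATPase of the snoRNP assembly machinery, fell to 61.7 and 53.1 TPM with Rnaseh1, against 213 and 214 TPM with mCherry, though it was at -0.09 and not called after removal of the GC trend. Tcof1, which links Pol I transcription with snoRNPs, fell by 2.04 and was likewise not called after that step (-0.23), and Snu13, the RNA-binding protein of box C/D and U3 particles, fell by 0.81.

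**Figure D4:**
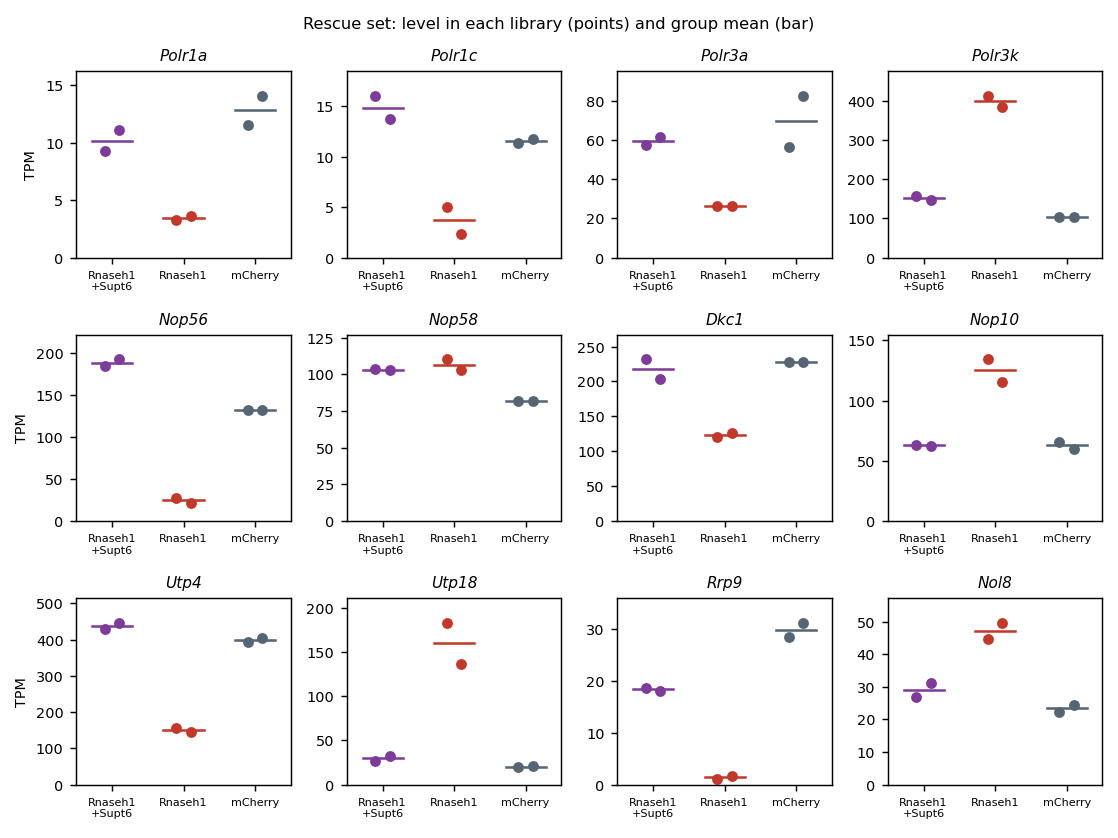
Level in TPM of 12 members in each rescue library (points, with the mean of the 2 libraries as a bar) for Rnaseh1 plus Supt6, Rnaseh1 and mCherry; every axis starts at 0. Rnaseh1 libraries are the lowest for Polr1a, Polr1c, Polr3a, Nop56, Dkc1, Utp4 and Rrp9 and the highest for Polr3k, Nop10, Utp18 and Nol8, while Nop58 overlaps between Rnaseh1 plus Supt6 and Rnaseh1.

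Of the 9 UTP proteins tested, 2 rose and 3 fell, and 4 of these 5 calls held under every scaling. Utp4, a component of the UTP-A group that first binds the nascent transcript, was at 429 and 447 TPM with Rnaseh1 plus Supt6, 156 and 146 TPM with Rnaseh1 and 393 and 405 TPM with mCherry. It fell with Rnaseh1 by 1.4 (SE 0.08, adjusted p = 6.2e-06), and Utp15 of the same group fell to 7.02 and 7.61 TPM, against 18.6 and 21.4 TPM (-1.33, SE 0.17). Utp18, of the UTP-B group, went the opposite way and rose more than any other member. It was at 26.3 and 32.8 TPM with Rnaseh1 plus Supt6, 183 and 137 TPM with Rnaseh1 and 19.8 and 20.8 TPM with mCherry. With Rnaseh1 it rose by 2.91 on the log2 scale (SE 0.18, adjusted p = 9.4e-06). Utp11, a later processome component, rose to 50.9 and 50.7 TPM with Rnaseh1, against 33.2 and 30.5 TPM with mCherry (0.66, SE 0.12). Utp3, Utp6, Utp20 and Utp23 were not called as deposited, with values from -0.32 to 0.50, but their status depends on scaling. Utp20 was called upward under the other 3 scalings (0.84, 0.9997 and 0.59). Utp23 was called upward after median centring and quantile normalization (1.09 and 1.19). Utp3, at -0.17 as deposited, was called upward after quantile normalization (0.51) and removal of the GC trend (0.72), and Utp6, at -0.32, stood at 0.26 after median centring and 0.46 after quantile normalization without being called.

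Utp14a is the X-linked gene for a helicase cofactor of the processome, and Utp14b is a retroposed copy of it known for its role in the mouse testis. Utp14a was at 17.98 and 21.9 TPM with Rnaseh1 plus Supt6, 11.9 and 11.5 TPM with Rnaseh1 and 16.7 and 19.1 TPM with mCherry, a fall of 0.57 (SE 0.17, adjusted p = 0.0216) that became 0.015 after median centring and 0.17 after quantile normalization. Utp14b lay between 0.24 and 1.5 TPM in this set and was not tested there. Reads of a retroposed copy may be shared with its parent gene, so the split between the pair is uncertain.

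Other processome proteins outside the members included some of the deepest falls. Among 18 of them 2 rose and 9 fell. Imp4, a partner of the U3 snoRNP, was at 216 and 239 TPM with Rnaseh1 plus Supt6, 11.8 TPM in both Rnaseh1 libraries and 241 and 226 TPM with mCherry (Rnaseh1 against mCherry -4.20, SE 0.10). Noc4l, the partner of Nop14, was at 329 and 348 TPM, 27.7 and 19.4 TPM, and 408 and 418 TPM in the same groups (-4.10, SE 0.16). Wdr36 of the UTP-B group, to which Utp18 also belongs, fell by 2.08.

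Among assembly factors with NOP symbols 3 of 4 tested fell and none rose as deposited. Nop14, which joins the processome with Noc4l, was at 26.0 and 28.8 TPM with Rnaseh1 plus Supt6, 5.67 and 5.4 TPM with Rnaseh1 and 15.7 and 21.4 TPM with mCherry (Rnaseh1 against mCherry -1.57, SE 0.19, adjusted p = 0.000327). Nop2, an RNA methyltransferase of the large subunit, fell to 0.41 and 0.19 TPM, against 2.44 and 4.13 TPM (-1.70, SE 0.29). After removal of the GC trend Nop2 was not called (-0.13). Nop53, which brings the exosome to the large subunit, fell by 0.98 but was at 0.03 after removal of the GC trend. Nop9 was not called as deposited (-0.26, SE 0.26) but was called upward after removal of the GC trend (1.27). Large-subunit assembly factors outside the members counted 3 rises and 8 falls among 17 tested. Brix1 rose to 1045 and 1189 TPM with Rnaseh1, against 282 and 283 TPM with mCherry (1.98, SE 0.09), while Pes1 of the PeBoW complex fell to 11.9 and 12.04 TPM, against 65.9 and 65.4 TPM (-2.36, SE 0.12), and Ftsj3 fell by 2.11.

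Of 8 RRP processing factors 7 fell with Rnaseh1 and none rose as deposited. Only 3 of these 7 calls held under all 4 scalings. After removal of the GC trend Rrp12 had a value of 0.57, and Rrp8 (-0.28) and Rrp36 (-0.14) were not called. Rrp9, the protein specific to the U3 snoRNP, was at 18.6 and 17.99 TPM with Rnaseh1 plus Supt6, 1.08 and 1.73 TPM with Rnaseh1 and 28.5 and 31.2 TPM with mCherry. The groups were well apart, and its change with Rnaseh1 of -3.69 on the log2 scale (SE 0.20, adjusted p = 6.3e-06) was the largest fall of any member. It was still -1.85 after removal of the GC trend. Rrp7a, a small-subunit assembly factor, was at 8.17 and 8.27 TPM, 0.94 and 1.39 TPM, and 14.8 and 13.2 TPM in the same groups (Rnaseh1 against mCherry -2.79, SE 0.22). Rrp8, which methylates the large ribosomal RNA, fell to 16.1 and 18.4 TPM, against 48.1 and 48.7 TPM (-1.44, SE 0.14).

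Rrp1 and Rrp1b are a pair of related genes whose yeast counterpart acts in large-subunit processing. Rrp1 was at 11.4 and 11.6 TPM with Rnaseh1 plus Supt6, 3.28 and 1.70 TPM with Rnaseh1 and 19.9 and 18.7 TPM with mCherry. Rrp1b was at 26.8 and 31.1 TPM, 8.52 and 9.11 TPM, and 32.8 and 25.6 TPM in the same groups. Both fell with Rnaseh1 as deposited, Rrp1 by 2.58 (SE 0.26) and Rrp1b by 1.61 (SE 0.18). After removal of the GC trend Rrp1 was still called (-0.92) but Rrp1b was not (-0.34). Rrp15 was not called (-0.31, adjusted p = 0.0857).

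Of 7 NOL proteins 2 rose and 4 fell. Nol10, a small-subunit factor, was at 11.7 and 13.0 TPM with Rnaseh1 plus Supt6, 1.22 and 2.65 TPM with Rnaseh1 and 17.2 and 20.8 TPM with mCherry (Rnaseh1 against mCherry -2.81, SE 0.28, adjusted p = 9.87e-05). Nol6, the counterpart of yeast Utp22, was at 1.07 and 0.87 TPM, 0.27 and 0.07 TPM, and 3.37 and 4.67 TPM in the same groups (-2.09, SE 0.26). Outside mCherry Nol6 reached 1 TPM in this set only in the library at 1.07 TPM. It passed the filter through mCherry and was not tested in the NSN and SN table. Its fall is therefore a description and no result, although it is counted among the falls. Nol8 went the other way, at 26.8 and 31.2 TPM, 44.7 and 49.7 TPM, and 22.3 and 24.4 TPM (0.98, SE 0.14, adjusted p = 0.000675). Nol12, a nucleolar RNA-binding protein, fell by 0.74 as deposited and rose by 0.69 past the threshold once the GC trend was removed, so its direction depends on that step. Nol9, a polynucleotide kinase of ribosomal RNA processing, fell by 1.32 and was at 0.10 after the same step. The 2 tested symbol matches Nol4 and Nol4l were not called as deposited (0.13 and -0.39), but Nol4l was called upward after removal of the GC trend (1.02).

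The exosome, which trims the 3′ ends of ribosomal RNA, was divided as well, with 4 rises and 4 falls among 11 subunits and cofactors. The ring subunits Exosc7 and Exosc8 rose, Exosc7 to 539 and 556 TPM with Rnaseh1, against 162 and 150 TPM with mCherry (1.80, SE 0.08), and Exosc8 by 1.47. The nuclear exonuclease Exosc10 fell to 5.52 and 4.03 TPM, against 39.0 and 36.6 TPM (-2.76, SE 0.18).

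The second question in the rescue set was how oocytes with Rnaseh1 plus Supt6 compared with those with mCherry. Only 6 of 53 members changed, 2 upward and 4 downward, which is 11.3% against 13.3% of all tested genes (5.71% upward and 7.6% downward). An unadjusted p under 0.05 was found for 18 members, against 28.1% of all genes. The split was 3 up and 3 down after median centring (7.16% and 6.29% of all genes), 5 and 4 with quantile normalization (6.54% and 6.99%), and 2 and 0 with the GC trend removed (6.83% and 4.14%). Polr3k (0.56, SE 0.09, adjusted p = 0.0105) and Nop56 (0.51, SE 0.13, adjusted p = 0.047) rose and were called under all 4 scalings, as were 4.28% of all genes upward and 3.58% downward. Nol6 (-1.34, SE 0.26), Rrp12 (-1.09, SE 0.25), Polr3d (-0.86, SE 0.20) and Polr1d (-0.31, SE 0.08) fell, with adjusted p-values from 0.0217 to 0.0472. Since Nol6 passed the 1 TPM filter through mCherry, its fall is a description and no result, although it is 1 of the 6. The count rests on every library: it was 0 without either Rnaseh1 plus Supt6 library or either mCherry library, and 13 or 12 without replicate 1 or 2 of Rnaseh1, which only lends its spread. Rrp9 (-0.67, adjusted p = 0.0762), Rrp7a (-0.70, adjusted p = 0.0874) and Rrp8 (-0.43, adjusted p = 0.0845) were below mCherry in both libraries without passing the test; these 3 were chosen after their values were seen.

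The third comparison set Rnaseh1 plus Supt6 against Rnaseh1; it shares the Rnaseh1 libraries with the first comparison, so the signs of the pair are tied and only the values are given. Of 53 members 29 rose and 8 fell. Among all tested genes 58.9% were called, 41.6% upward and 17.4% downward, against 69.8% of the members. The median log2 fold change was 0.61 in members and 0.44 in all genes, which median centring turned into 0.09 and -0.07. The split was 17 up and 14 down both after median centring (26.2% and 30% of all genes) and after quantile normalization (27% and 29.1%). With the GC trend removed it was 9 up and 16 down (23.3% and 27.5%).

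Calls that held under all 4 scalings numbered 17 of 53 here, 9 upward and 8 downward, against 18.5% and 15.4% of all genes. Rrp9 (3.02, SE 0.20), Nop56 (2.90, SE 0.13), Nol10 (2.23, SE 0.28), Nop14 (2.12, SE 0.19), Rrp7a (2.10, SE 0.22), Rrp1b (1.61, SE 0.18), Utp4 (1.53, SE 0.08), Utp15 (1.16, SE 0.17) and Dkc1 (0.81, SE 0.09) rose. Utp18 (-2.39, SE 0.18), Polr3k (-1.38, SE 0.09), Utp23 (-1.02, SE 0.27), Nop10 (-0.98, SE 0.11), Npm1 (-0.84, SE 0.09), Nol8 (-0.69, SE 0.14), Ncl (-0.68, SE 0.14) and Utp11 (-0.58, SE 0.12) fell. Ncl and Npm1 were thus lowest where Supt6 was added: Ncl was at 52.0 and 60.6 TPM with Rnaseh1 plus Supt6, below all 4 other libraries. By role and as deposited, 7 of 8 RRP factors rose and none fell, and 3 of these 7 calls held under all 4 scalings. Of 5 Pol I and shared subunits 4 rose, and the UTP proteins were even with 3 in each direction. Of these Pol I rises, Polr1a (1.33, SE 0.21) and Polr1c (1.81, SE 0.30) had the same sign under every scaling, but none stayed past the threshold under all 4. Polr1d was at -0.23 with median centring and at -0.65 with the GC trend removed, where Polr1e was at -0.27.

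In NSN and SN oocytes the same genes were examined in a separate table, in which 54 members were tested among 12736 genes. No gene of the table passed an adjusted p of 0.05 in any of the 5 comparisons (0%), the members included. For Rnaseh1 against mCherry in SN oocytes, 4 of 54 members had an unadjusted p under 0.05, against 6.74% of all tested genes, and the libraries of 27 members did not overlap, which is 50% against 50.7% of all genes. In NSN oocytes the same counts were 2 members, against 2.77%, and 23 members without overlap, 42.6% against 32.9%. The median member was at -0.37 in SN and -0.38 in NSN oocytes, against -0.22 and -0.29 for all genes.

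Nol8 stood out in SN oocytes, with 108 and 111 TPM in SN Rnaseh1 libraries against 27.9 and 18.03 TPM in SN mCherry libraries. Both SN Rnaseh1 libraries were above every other library of the study for this gene, with NSN Rnaseh1 at 35.3 and 47.5 TPM and NSN mCherry at 27.1 and 37.5 TPM. Its log2 fold change was 2.23 in SN oocytes (SE 0.38, unadjusted p = 0.00048, adjusted p = 0.407 by limma). The same gene was called in the rescue set at 0.98.

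Rrp1b was at 7.82 and 11.8 TPM in SN Rnaseh1 oocytes against 21.0 and 34.0 TPM in SN mCherry oocytes (-1.38, SE 0.49, adjusted p = 0.61). Polr3gl was listed at 0 in both SN Rnaseh1 libraries, against 0.59 and 2.79 TPM in SN mCherry. Rrp7a was at 0.68 and 0.19 TPM in SN Rnaseh1 against 1.16 and 8.89 TPM in SN mCherry (-1.71, SE 0.73). For all 3 genes the SN Rnaseh1 and SN mCherry libraries did not overlap, but none passed the test, and Rrp7a shows how far apart the 2 SN mCherry libraries were. Polr3d was at 16.8 and 13.4 TPM in SN Rnaseh1 against 3.89 and 7.98 TPM in SN mCherry (1.27, SE 0.55, adjusted p = 0.61), above its control here and below it in the rescue set.

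Members that moved most in the rescue set show what the spread of the SN and NSN libraries allows. Rrp9 was at 0.39 and 1.82 TPM in SN Rnaseh1 oocytes against 1.80 and 24.2 TPM in SN mCherry oocytes, and at 6.37 TPM and listed at 0 in NSN Rnaseh1 against 3.49 and 2.93 TPM in NSN mCherry. Nop56 was at 33.9 TPM in both SN Rnaseh1 libraries against 58.9 and 200 TPM in SN mCherry. In NSN Rnaseh1 libraries it was at 131 and 29.4 TPM, against 141 and 99.3 TPM in NSN mCherry. NSN Rnaseh1 replicate 1 lay near the NSN mCherry values for Nop56 and replicate 2 far below them. Polr3k was at 280 and 192 TPM in SN Rnaseh1 against 195 and 72.5 TPM in SN mCherry, and at 175 and 307 TPM in NSN Rnaseh1 against 109 and 160 TPM in NSN mCherry. Utp18 was at 82.4 and 78.3 TPM against 54.0 and 77.1 TPM in SN oocytes, and at 52.0 and 95.8 TPM against 43.2 and 47.4 TPM in NSN oocytes, each with Rnaseh1 before mCherry.

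**Figure D5:**
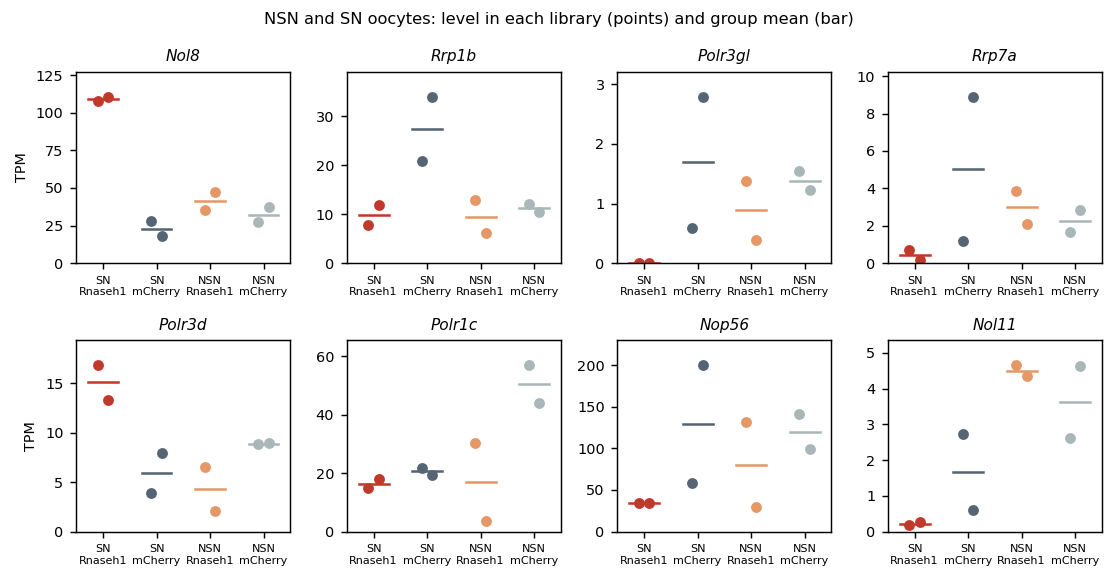
Level in TPM of 8 members in each library of SN and NSN oocytes (points, with the mean of the 2 libraries as a bar), from left to right SN Rnaseh1, SN mCherry, NSN Rnaseh1 and NSN mCherry; every axis starts at 0. Nol8 is at 108 and 111 TPM in SN Rnaseh1 and at 47.5 TPM or less elsewhere, and the wide gaps within SN mCherry and NSN Rnaseh1 show for Rrp7a, Nop56 and Polr1c.

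In NSN oocytes the smallest p-values, apart from Nop16, belonged to Polr1c, Nop10, Nop58 and Nol12, none of which passed (adjusted p = 0.755 for each). Polr1c was at 30.4 and 3.65 TPM in NSN Rnaseh1 oocytes against 56.9 and 44.2 TPM in NSN mCherry oocytes (-2.08, SE 0.80). Nop16, a large-subunit factor, was at 0.55 and 0.59 TPM in NSN Rnaseh1 against 2.87 and 1.5 TPM in NSN mCherry. Since Nop16 passed the 1 TPM filter through NSN mCherry alone, it had to be high there, and its values against that group are a description and no result, although it is 1 of the 2 members counted above. Nop10 was at 117 and 173 TPM against 61.9 and 81.9 TPM (0.99, SE 0.48), higher in both libraries as in the rescue set. Nop58 was at 173 and 59.8 TPM against 204 and 214 TPM, and Nol12 at 88.9 and 24.2 TPM against 93.2 and 124 TPM. Much of this comparison hangs on 1 library: without NSN Rnaseh1 replicate 1, which leaves replicate 2 alone and assumes that it varies like the other groups, 5 members fell past the threshold (Dkc1, Nol12, Nop58, Polr1c and Rrp15, named after their values were seen), while 7.91% of all tested genes fell in the same fit. Without NSN Rnaseh1 replicate 2 none did.

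No member passed the test between the nuclear stages. SN against NSN in mCherry oocytes gave 2 of 54 members with an unadjusted p under 0.05, against 2.58% of all tested genes. Nop16 was listed at 0 in both SN mCherry libraries, against 2.87 and 1.5 TPM in NSN mCherry, the group through which it passed the filter, so it supports nothing as 1 of these 2. Rrp1b was at 21.0 and 34.0 TPM in SN mCherry against 12.1 and 10.4 TPM in NSN mCherry (1.18, SE 0.49). Utp23, Nol11 and Nol7 came next with log2 fold changes of -0.96, -0.88 and 0.70. Npm1 was at 676 and 626 TPM in SN mCherry against 596 and 588 TPM in NSN mCherry, and Ncl at 232 and 128 TPM against 135 and 175 TPM. For SN against NSN in Rnaseh1 oocytes 3 members had an unadjusted p under 0.05, against 4.59% of all genes. Nol11, a vertebrate component of the UTP-A group, was at 0.18 and 0.26 TPM in SN Rnaseh1 against 4.65 and 4.34 TPM in NSN Rnaseh1 (-2.17, SE 0.52, adjusted p = 0.851). Nol8 (1.4, SE 0.38), Polr3d (1.72, SE 0.55) and Rrp7a (-1.46, SE 0.73) followed.

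Whether the response to Rnaseh1 differed between SN and NSN oocytes was tested as an interaction, SN minus NSN. No member passed, every adjusted p being 1, and 2 members had an unadjusted p under 0.05, against 2.26% of all genes. They were Nol8 (1.88, SE 0.54, unadjusted p = 0.00891) and Polr3d (2.30, SE 0.78, unadjusted p = 0.0205). Apart from Nop16, Rrp7a (-1.99, SE 1.03) and Nol11 (-1.29, SE 0.74) came next.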

How the data were processed

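Polyadenylated RNA of 14 mouse oocyte libraries was measured, and the authors deposited TPM values per gene, 1 column per library, in 2 tables. Per the submitters' processing notes, the tools were RSEM 1.3.3, STAR 2.7.0d, DESeq2 and Trim Galore 0.6.7, with genome build mm10; what each did is not given there. A TPM value depends on the rest of its library and carries no depth. Identifiers of the first table were matched to symbols (35319 matched, 70 did not), and annotation came from GENCODE M21 and RefSeq GRCm38.p6. Genes that reached 1 TPM in 2 or more libraries of a table were tested with limma 3.58.1 (R 4.3.3) on log2(TPM + 1), with all groups of a table sharing 1 variance estimate, a mean-variance trend and Benjamini-Hochberg adjustment over all tested genes; the threshold was 0.05. Fold changes on this scale understate low genes. The procedure was tested on simulated data. Named were up to 4 members per role with the smallest p in the first rescue comparison, up to 5 in each other comparison, up to 3 per partner list, and fixed paralogue pairs and subunits. The members and all lists were chosen with earlier results of these data known. Alternatives were other pseudocounts (0.1 and 5), filters, scalings, a GC trend removed per library (lowess span 0.3), a replicate block, comparison groups alone and leaving out libraries; 1 member is counted with the others but its own values are not reported here; partner lists were rescaled only for the first rescue comparison.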

Additional observations from a re-analysis of the deposited data

Results flagged for a closer look

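Polr3d had opposite signs for Rnaseh1 against mCherry in 2 settings, with no overlap of libraries in either: 1.27 in SN oocytes and -1.43 in the rescue set. After removal of the GC trend its rescue value was 0.11, so the opposite sign depends on scaling. Utp6 did the same at a smaller size, 0.38 in SN oocytes and -0.32 in the rescue set, where it was not called (adjusted p = 0.228 by limma) and stood at 0.26 after median centring and 0.46 after quantile normalization. Nop58 was at -1.03 in NSN oocytes and 0.38 in the rescue set. The difference between settings was not tested for these 3 genes, since the tables are separate.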

How the results depend on the processing

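Each value rests on 2 libraries a group and an unknown read depth, so low members such as Ubtf, Nop2, Nol6 and Polr3gl are limited most. In the rescue set, members called for Rnaseh1 against mCherry stayed between 32 and 40 when single libraries were left out, and fell to 24 once the GC trend was removed. For Rnaseh1 plus Supt6 against mCherry the 6 calls became 2 with a pseudocount of 0.1, 10 with 5, 1 with no filter, 2 after removal of the GC trend, 3 with a replicate block, 12 with those groups alone, and 0 to 13 without single libraries. Against Rnaseh1 the 37 calls became 25 to 35 without single libraries. In NSN oocytes leaving out single libraries gave 0 to 5 members, and no member in the other 4 comparisons of NSN and SN oocytes (0 throughout). Leaving out both libraries that stood apart gave 0 in all 5. The replicate numbers did not pair the libraries (correlations of deviations from -0.514 to 0.169 in the NSN and SN table and 0.000 to 0.038 in the rescue table). With a replicate block 38, 3 and 34 members were called in the 3 rescue comparisons in the order above and 0 in the others. SN against NSN in mCherry oocytes had a correlation of -0.209, and a block with crossed numbers, added after seeing the data, also called 0 members.

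The cause of the following changes of sign was not tested. For Rnaseh1 against mCherry after removal of the GC trend, Nol12 was at 0.69, Nol9 at 0.098, Rrp12 at 0.57, Nol4l at 1.02, Nop53 at 0.032, Nop9 at 1.27, Polr1b at 0.068, Polr1d at 0.49, Polr1e at 0.33, Polr3d at 0.11 and Ubtf at 0.084. Utp14a was at 0.015 after median centring and 0.17 after quantile normalization. For Rnaseh1 plus Supt6 against Rnaseh1 after removal of the GC trend, Nol12 was at -0.38, Nol6 at -0.57, Nop2 at -0.057, Nop9 at -1.12, Polr1d at -0.65, Polr1e at -0.27, Polr3c at -0.056, Polr3d at -0.66 and Ubtf at -0.37. Polr1d was at -0.23 after median centring and Polr3d at -0.022 after quantile normalization. These cover the 10 and 8 called members whose sign turned, with Nol4l and Nop9, which were not called as deposited. For Rnaseh1 against mCherry, Nol4l and Nop9 were past the threshold upward after removal of the GC trend. In all, 8 uncalled members in each of these comparisons, and 9 for Rnaseh1 plus Supt6 against mCherry, changed sign under a scaling.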
